A study of Mus musculus with 4 samples.

Results

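The response of unstimulated dendritic cells to hypoxia was read from 2 arrays, as the log2 difference of hypoxia in media minus normoxia in media. Every gene with an intensity of 64 or more on either array was taken, which kept 2254 of 22221 genes with a symbol. The cells came from bone marrow of the mouse strain C57Bl/6, were cultured with the growth factor GM-CSF and then spent 16 h in media at normoxia or at hypoxia. The labels give the hypoxia as 0.5% and do not name the gas, and neither the number of mice nor any pooling is given in the sources used here. A further pair of arrays, from cells given poly I:C at 10 µg/ml in normoxia or in hypoxia for the same time, serves below for comparison. This synthetic RNA, which is double-stranded, sets off antiviral sensing. Total RNA (200 ng) was read on a whole-transcript Affymetrix array, 1 array a condition. There is therefore no replicate, and the differences have no error and no test. "Higher" and "lower" below mean a difference of 2-fold or more between the 2 media arrays, and differences are on the log2 scale. Where 2 values joined by "and" follow a gene they are its intensities in normoxia and then in hypoxia, and a last or lone value in brackets is the log2 difference. A shift in the mix of cells and a shift in RNA per cell cannot be told apart in such bulk samples.

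Cells sense oxygen through prolyl hydroxylases, which need it as a substrate and mark the alpha subunits of hypoxia-inducible factors (HIF) for destruction. When oxygen runs low the subunits persist, pair with their beta partner and bind short DNA motifs near genes of glucose uptake, glycolysis, pH control and blood vessel growth. Dendritic cells take up material in tissue, often at low oxygen, and carry it to T cells. Because the HIF targets and glycolysis are the textbook core of this response, 2 lists of such genes were set aside, and the account below is mainly of the other genes.

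The labelled cell type was checked against marker genes. Of 12 dendritic cell markers, 5 reached the floor and none was 2-fold apart. They were Itgax (615 in normoxia and 425 in hypoxia), Cd74 (1000.2 and 1101), H2-Aa (902 and 1395), H2-Ab1 (631 and 1037) and H2-Eb1 (539 and 741). Flt3, Zbtb46, Xcr1, Clec9a, Cd209a, Ccr7 and Batf3 stayed under the floor on both arrays. Such cultures also hold macrophage-like cells, and 13 of 17 macrophage markers were at the floor, with a summed intensity of 7230 in normoxia and 7049 in hypoxia. Lyz2 gave the most to this sum (3543 and 3306), which hides moves both ways. Of the 13, 8 lay below 0 and 5 above it. Marco (-2.09) and Mrc1 (-1.39) were lower and Apoe (1.27) was higher, while Adgre1 (-0.93), Msr1 (-0.81) and Cd14 (0.79) were short of 2-fold. The dendritic cell markers summed to 3800 and 4806. The neutrophil list had 15 of its 17 genes under 16 on both arrays and the summed intensity was 537 and 645, to which Mmp8 gave the most (441 and 580.1). Eosinophil markers summed to 146 and 245, T cell markers to 290 and 412, nearly all of the latter from Il7r (269 and 389.6). Megakaryocyte and platelet markers summed to 204 and 127. The floor was reached by no listed marker of B cells, erythroid cells, stromal cells, natural killer cells, basophils and mast cells, or plasmacytoid dendritic cells. The part of these shifts in the results below was not tested.

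The values are deposited RMA intensities on a linear scale, without detection calls. Median intensity lay between 3.902 and 4.085 on the 4 arrays, and the 75th percentile was 17.0 on the normoxia media array and 16.3 on the hypoxia media array, so an intensity of 64 is well above most probe sets. Of the genes just inside the floor, Ube2z (0.33), Grb2 (0.12) and Galnt1 (-0.29) had a higher level of at most 64.08, and of those just outside, Cbfb (-0.54), A430108E01Rik (0.09) and Dna2 (-1.18) had one of at least 63.95.

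Of the 2254 genes, 132 were higher in hypoxia (5.86%) and 122 were lower (5.41%). At 3-fold the counts were 59 (2.62%) and 40 (1.77%). The median difference was -0.08, the middle 50% of genes lay between -0.39 and 0.24, and the middle 95% between -1.36 and 1.64. Which array admitted a gene bears on its direction. Among the 1673 genes at the floor on both arrays, 53 were higher and 34 were lower. The 241 genes at the floor in hypoxia only held the other 79 higher genes, and the 340 at the floor in normoxia only held the other 88 lower genes. For such genes the lower reading is dim, so a fold rests on a small denominator, and the difference after adding 16 to each intensity is given beside the largest.

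**Figure D1:**
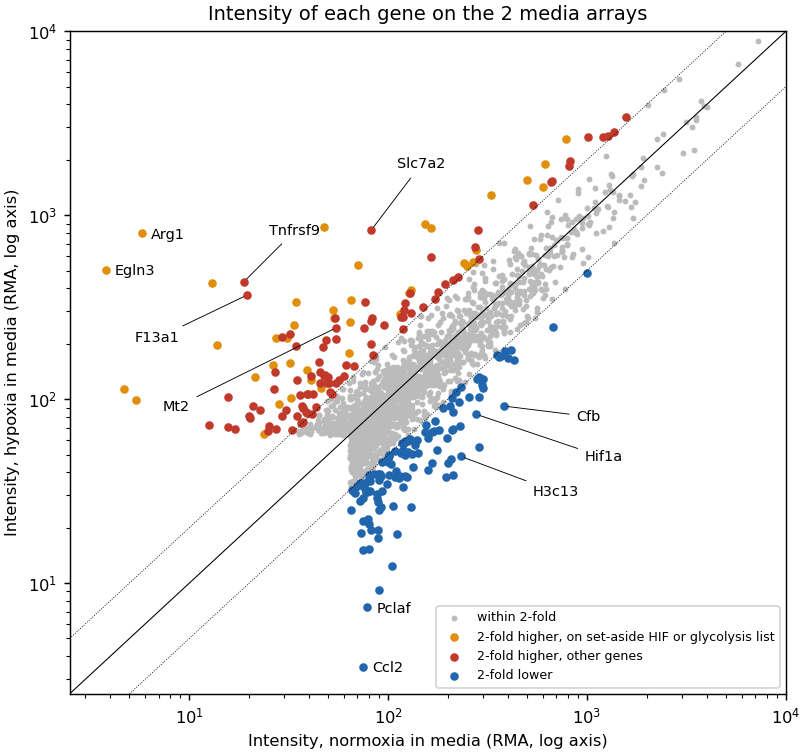
Each point is 1 of the 2254 genes, with its RMA intensity in normoxia on the x axis and in hypoxia on the y axis, both log axes. The solid line marks equal levels and the dotted lines 2-fold. The set-aside Arg1 and Egln3 and, among other genes, Tnfrsf9 and F13a1 lie far above the lines, Ccl2 and Pclaf lie far below, and the empty lower left corner is the floor of 64.

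The set-aside lists give a yardstick for size. Of 81 HIF target genes, 47 reached the floor, and 40 of these were higher (median 1.71). Of 42 glycolysis genes, 26 reached the floor, and 20 of these were higher (median 1.64). Neither list had a lower gene. Both lists were chosen as genes that respond to hypoxia, so their direction is not a finding. Together they held 41 of the 132 higher genes and none of the 122 lower ones. The remaining 91 higher genes come from 2202 genes on neither list, of which 4.13% were higher and 5.54% lower, with a median of -0.09. Of the 91, 16 are predicted genes named Gm or LOC, and the array file describes 7 of these as glyceraldehyde-3-phosphate dehydrogenase or similar to it. The 9 such predicted genes at the floor differed by 0.66 to 2.35 (median 1.22), and Gapdh itself, the glycolytic enzyme they copy, read 2908 and 5529 (0.93). Signal of near-identical copies cannot be told apart on this array, so the 7 cannot be counted as separate genes with certainty.

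Beyond the set-aside lists, the co-stimulatory receptor gene Tnfrsf9 (4-1BB) stood furthest up. It read 18.8 in normoxia and 436 in hypoxia, a log2 difference of 4.53, or 3.70 after adding 16. F13a1, which encodes the catalytic subunit of the clot-stabilising factor XIII, read 19.5 and 367 (4.24, or 3.43 after adding 16). Slc7a2, a transporter of arginine and other cationic amino acids, was above the floor on both arrays at 82.3 and 832 (3.34). These 3 genes were dim to moderate in normoxia and bright in hypoxia. Next came Klk1b11 (29.2 and 217), 1 of a cluster of closely similar mouse kallikrein genes whose probes may share signal. The kallikrein Klk1b5 read 29.3 and 81.1. Mamdc2, an extracellular protein with MAM domains, read 31.96 and 226 (2.82). The inositol monophosphatase gene Impa2 read 34.6 and 194 (2.49), and the Wnt receptor gene Fzd7 read 26.8 and 139.8 (2.38).

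A group of 15 genes was under 16 on 1 array and at the floor on the other. Of these, 9 were the bright ones in hypoxia, and 6 of the 9 are set-aside genes: Arg1, Egln3, Ndrg1, Selenbp1, Ankrd37 and Gys1. The other 3 were Cd244a, an immune receptor of the SLAM family (15.7 and 102), Grhpr, which reduces glyoxylate (12.6 and 72.6), and Tnfrsf23, a mouse decoy receptor for the death ligand TRAIL (15.6 and 70.9). The 6 genes bright in normoxia were Ccl2 (74.5 and 3.51), Pclaf (78.5 and 7.39), Apol7c (90.2 and 9.16), H1f5 (104 and 12.4), Kpna2 (80.5 and 15.3) and Rrm1 (74.9 and 15.1). Ccl2 is a chemokine that draws monocytes, Apol7c an apolipoprotein L family gene, and the other 4 genes serve dividing cells.

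**Figure D2:**
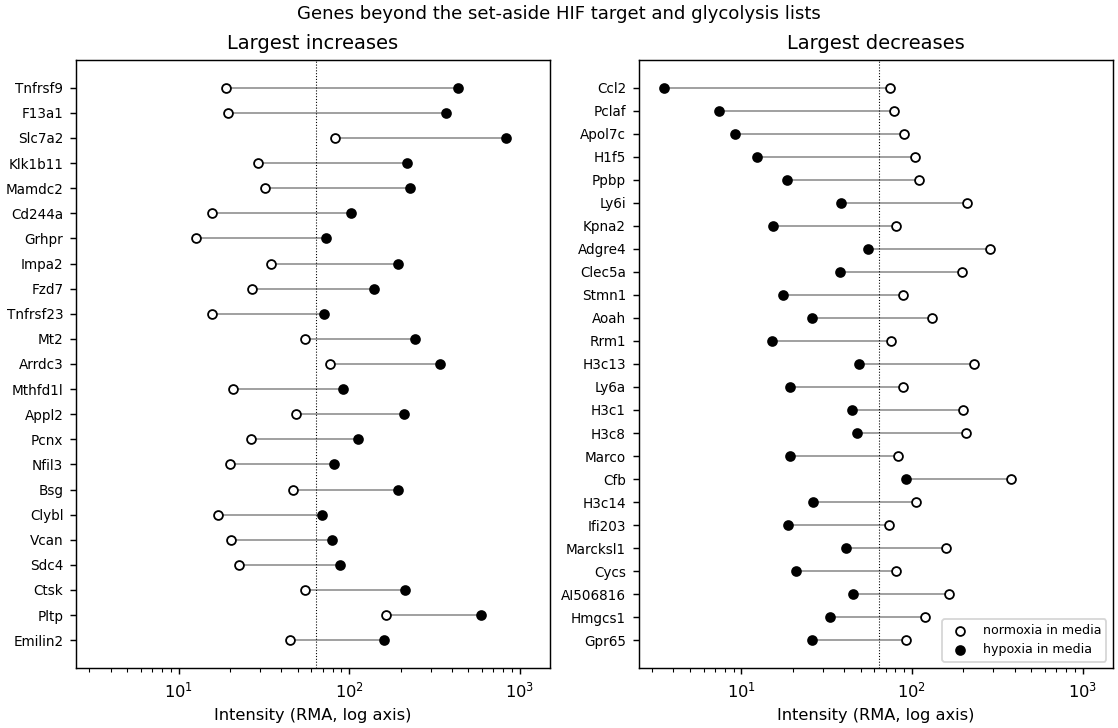
RMA intensity (log axis) of the genes furthest apart on neither set-aside list, with normoxia in media as an open point and hypoxia in media as a filled point, 1 array each. The dotted line is the floor of 64. The predicted genes LOC668275 and Gm8055, which belong to the 25 largest increases, are left out of the left panel. Most left-hand genes cross the floor upwards and most right-hand genes cross it downwards, whereas Slc7a2, Arrdc3 and Pltp on the left and Cfb on the right lie above it on both arrays.

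Genes of the extracellular matrix, coagulation and proteases included several of the largest increases. Of 86 on the array, 33 reached the floor, and 8 were higher (24.2%, against 5.86% of all genes) and 2 lower, with a median of 0.39. Leaving out set-aside genes, 6 of 31 were higher. All 8 were under the floor in normoxia and so entered through the array where they were high, as did 79 of the 132 higher genes, so the share is a description only. Besides F13a1 and Mamdc2 they were the proteoglycan gene Vcan (20.2 and 78.7, 1.96), the matrix glycoprotein gene Emilin2 (44.9 and 159, 1.82), Hpse, the heparanase that cuts heparan sulfate (56.5 and 127.6, 1.18), and Vwf, von Willebrand factor (32.7 and 68.1, 1.06). The collagen hydroxylase genes P4ha1 (2.37) and Plod1 (1.73) complete the 8 and are set-aside HIF targets. Lower were the platelet chemokine gene Ppbp (110.4 and 18.4, -2.58) and Spint1, an inhibitor of serine proteases (80.3 and 38.5, -1.06). Vwf and Ppbp both belong to the platelet marker list and lay in opposite directions. The abundant matrix genes of the culture moved little: Mmp12, macrophage elastase, read 3146 and 3202, and Fn1, fibronectin, 1331 and 1629. The carriers of heparan sulfate Sdc4 (22.7 and 87.8) and Sdc1 (55.0 and 123), which are not on that list, were also higher.

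The receptors at the cell surface went both ways. In the TNF superfamily and co-stimulation list 3 of 14 genes were higher (21.4%, against 5.86% of all genes) and none was lower. The higher ones were Tnfrsf9, Tnfrsf23 and Vsir, the checkpoint receptor VISTA (67.6 and 152, 1.16), of which only Vsir was at the floor on both arrays. The ligand gene Cd274 (PD-L1) read 184 and 162. Among Fc and paired immunoglobulin-like receptors 3 of 25 were higher and 3 lower. The inhibitory IgG receptor gene Fcgr2b read 121 and 334 (1.47), and the inhibitory receptor gene Cd300lf 47.5 and 133 (1.49). Sirpb1a (1.12) was higher on each of its probe sets at the floor, while Pilrb1 (-1.51), Pilra (-1.20) and the Src-family kinase gene Fgr (-1.59), which is counted in this list too, were lower. These paired receptor families hold close copies, so their members are uncertain. Of 9 complement genes, C3ar1, the receptor for the fragment C3a, was higher (284 and 829, 1.55), and Cfb, factor B of the alternative pathway, was lower (383 and 91.7, -2.06). Both were above the floor on both arrays.

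Among uptake and chemotactic receptors there were lower genes in each list. Of 20 lectin and scavenger receptor genes 4 were lower (20.0%, against 5.41% of all genes), of which 1 was at the floor on both arrays, and 1 higher, with a median of -0.48. The lower ones were Clec5a, an activating myeloid lectin (196 and 37.8, -2.37), Marco, which binds bacteria (82.3 and 19.4, -2.09), Axl, which recognises dying cells through a bridging protein (209 and 68.1, -1.62), and Mrc1, the mannose receptor (131 and 50.1, -1.39). Mgl2, a galactose-binding lectin (CD301b), was higher (36.7 and 91.9, 1.32). Cd36 (959 and 549.8) and Clec4n (1745 and 1184) stayed short of 2-fold. Marco and Mrc1 stand in the macrophage marker list, where 1 more gene passed 2-fold, Apoe, and was higher. Among 24 G protein-coupled receptors and their regulators, 4 were lower (16.7%, against 5.41% of all genes), 2 of them at the floor on both arrays, and 1, C3ar1, was higher. Lower were the proton-sensing receptor gene Gpr65 (92.5 and 25.8, -1.84), the UDP receptor gene P2ry6 (-1.33), Ptafr, the receptor for platelet-activating factor (156 and 72.0, -1.11), and the formyl peptide receptor gene Fpr1 (188 and 89.4, -1.07). The chemerin receptor gene Cmklr1, which is on no list, was at 89.96 and 25.1. Of 44 integrin and adhesion genes 4 were lower (9.09%, against 5.41% of all genes), 1 of them at the floor on both arrays, and 1, Cd244a, was higher. The lower ones were Adgre4, an adhesion receptor related to F4/80 (287 and 55.0, -2.39), Itgal, the alpha chain of LFA-1 (-1.34), and the neuropilin genes Nrp1 (139.8 and 59.6, -1.23) and Nrp2 (233 and 116, -1.001). The integrin chain genes Itgb2, Itgam and Itgax were within 2-fold, Itgb2 at 1133 and 1087 and Itgam at 680.5 and 690.0. Of 80 actin genes, Gsn, which severs filaments, was higher (94.7 and 252, 1.41), as was Anxa2, a set-aside gene (1.06), and Marcksl1 (159 and 41.1, -1.95) and Marcks (142 and 50.9, -1.48) were lower.

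Of the genes for arginine handling, Arg1, the arginase that splits arginine into ornithine and urea and here a set-aside gene, read 5.76 and 796 (7.11), and its importer Slc7a2 was given above. These and P4ha1 were the higher genes among 19 of amino acid transport and metabolism, and none was lower. Beyond the set-aside genes that is 1 of 17, against 5.86% of all genes, so the list as a whole was near the background. Slc7a11, the cystine importer, read 559 and 296 (-0.92), short of 2-fold. Smox, which oxidises the polyamine spermine and is on no list, read 41.9 and 107 (1.35). Arg1, Slc7a2, F13a1 and Mgl2 also belong to a list of 16 genes known from alternatively activated macrophages, of which 4 were higher and 1, Mrc1, was lower. Of the other members, Chil3 read 372 and 473, and the list's median of 0.32 turned to -0.11 under another setting.

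Metal and ion handling differed in a few genes. Of 20 genes for zinc, copper and iron 3 were higher (15.0%, against 5.86% of all genes) and 1 lower (5.0%, against 5.41%). The higher ones were the metallothionein genes Mt2 (54.7 and 244, 2.16) and Mt1 (172 and 349, 1.02), which bind zinc and copper, and the set-aside haem oxygenase gene Hmox1 (239 and 550.4, 1.20). Alas1, which starts haem synthesis, was lower at 995 and 486 (-1.03). So the enzyme that breaks haem down was higher and the enzyme that begins making it was lower, both at bright levels. The ferritin genes Fth1 (4014 and 3870.3) and Ftl1 (1873 and 1824) were level. Trf, transferrin, which is on no list, was higher at 212 and 446 (1.07). In the list of pH, ion channels and pumps 4 of 19 were higher (21.1%, against 5.86% of all genes) and 2 lower (10.5%, against 5.41%). Bsg, the partner that brings lactate transporters to the membrane, read 47.1 and 193 (2.03), beside the set-aside lactate exporter Slc16a3 (65.2 and 347, 2.41). The other higher ones were the scaffold gene Slc9a3r1 (1.06) and Cd300lf. Cd300lf is counted in this list although it is the inhibitory receptor gene given above, so the list's count of higher genes includes a gene of another kind. The proton channel gene Hvcn1 (209 and 101, -1.04) and the calcium pump gene Atp2a2 (285 and 132, -1.11) were lower. Of 36 genes of oxidative stress defence 3 were lower (8.33%, against 5.41% of all genes) and only Hmox1 was higher. Sod2, the mitochondrial superoxide dismutase, read 228 and 71.0 (-1.69). Gclm, a subunit of the enzyme that starts glutathione synthesis, read 158 and 61.5 (-1.36), and the thioredoxin reductase gene Txnrd1 205 and 91.4 (-1.17). The phagocyte oxidase gene Cybb was within 2-fold at 3028 and 2171.

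Lipid genes passed 2-fold about as often as all genes. Pltp, which transfers phospholipid between lipoproteins, read 164 and 595 (1.86), Apoe, their apolipoprotein, 116 and 279.9 (1.27), and the droplet coat gene Plin3 52.0 and 107 (1.04). These were the 3 higher genes of 38 (7.89%, against 5.86% of all genes), and 3 were lower (7.89%, against 5.41%): Lpcat2, which makes platelet-activating factor (287 and 103, -1.48), the acyl-CoA synthetase gene Acsl1 (166 and 66.6, -1.31) and the desaturase gene Fads1 (91.5 and 38.4, -1.25). Lpcat2 and Ptafr, an enzyme that makes platelet-activating factor and its receptor, were thus both lower. The lysosomal lipase gene Lipa was just short of 2-fold at 1370.4 and 703 (-0.96). Of the enzymes of cholesterol synthesis, Hmgcs1 (119 and 33.1, -1.84), Idi1 (74.9 and 21.8, -1.78) and Sc5d (114 and 37.1, -1.62) were lower. Insig2, which retains the activator of this pathway in the endoplasmic reticulum, was higher (36.6 and 73.8, 1.01).

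Genes of mitochondria were mostly within 2-fold. Of 33 genes of the respiratory chain and ATP synthase, 24 lay below 0 with a median of -0.16. The median of all genes was itself below 0 (-0.08), so counts below 0 are to be read beside that shift. Of the 33, 2 were lower (6.06%, against 5.41% of all genes), Cycs, cytochrome c (80.5 and 20.9, -1.95), and Cox5a (119 and 53.0, -1.17). The ATP synthase genes Atp5b (-0.45) and Atp5c1 (-0.02) are among the brighter members within 2-fold. Of 17 genes of the TCA cycle and pyruvate use, 1 was lower, Acod1, which diverts aconitate to itaconate in activated macrophages (211 and 84.9, -1.31), and the median was -0.36. Of 11 genes of mitochondrial import, chaperones and ribosome all lay below 0, with a median of -0.46 against -0.08 for all genes. Of these 1 was lower, the chaperonin gene Hspd1 (116 and 51.0, -1.19). Mitochondrial genes outside these lists went both ways. Lower were the complex I gene ND3 (354 and 175, -1.02), with -0.26 on its other probe set, and the cytochrome b5 gene Cyb5b (76.9 and 32.2, -1.26). Some were higher. The outer membrane channel gene Vdac1 read 83.1 and 277 (1.74), the inner membrane protease gene Afg3l2 48.3 and 135 (1.49), and Clybl, a mitochondrial lyase, 17.0 and 69.2 (2.02). Among 16 genes of the pentose phosphate pathway and nucleotide synthesis 2 were higher (12.5%, against 5.86% of all genes) and 1 lower (6.25%, against 5.41%). Mthfd1l, a mitochondrial enzyme of folate-bound carbon units, read 20.9 and 91.5 (2.13), and Adssl1, a step towards AMP, 39.5 and 107 (1.43). G6pdx, the entry enzyme of the pentose phosphate pathway, was lower at 414 and 184 (-1.17), opposite to the glycolysis genes.

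Genes of dividing cells were largely under the floor. Of 66 genes of DNA replication and licensing, 3 reached it: Pclaf and Rrm1, both lower as given above, and Pcna, the replication clamp, at 259.8 and 178 (-0.55). Of 96 genes of mitosis and the cell cycle 12 reached the floor. The microtubule regulator gene Stmn1 (88.4 and 17.5, -2.34) and Hmgb2 (88.4 and 39.3, -1.17) were lower, and Cdkn1b, which encodes the cell-cycle inhibitor p27, was higher (30.8 and 87.8, 1.51). For Cdkn1b the other probe set at the floor gave 0.93. Histone genes formed the list with the largest share of lower genes among those with 10 or more at the floor. Of 19 at the floor 10 were lower (52.6%, against 5.41% of all genes), 2 of them at the floor on both arrays. None was higher, and the median was -1.09. The linker histone gene H1f5 was given above. The core histone H3 genes H3c13 (232 and 48.8, -2.25), H3c1 (-2.16), H3c8 (-2.12) and H3c14 (-2.01), the H2B genes H2bc13 (114 and 38.3, -1.58), H2bc15 (-1.37) and H2bc7 (-1.31), and the H2A genes H2ac22 (-1.12) and H2ac10 (387 and 182, -1.09) followed. These genes are near-identical copies whose probes share signal, so they are not 10 independent readings. The replication-independent H3f3a (325 and 250.1) and H3f3b (294 and 252) were within 2-fold, and H2bc4 was the only member above 0 (0.67).

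Nuclear transport genes had 3 of 13 lower (23.1%, against 5.41% of all genes) and none higher. The lower ones were Kpna2, an importin alpha gene that was lower on both probe sets at the floor of its 3, Ipo7 (80.1 and 36.6, -1.13) and Ranbp1 (101 and 49.6, -1.03). All 3 were under the floor in hypoxia and so entered through the array where they were high. Of 50 RNA splicing genes 41 lay below 0, with a median of -0.22 against -0.08 for all genes. Of the 50, 2 were lower (4.0%, against 5.41% of all genes), Hnrnpab (299 and 115, -1.38) and Sfpq (153 and 66.4, -1.20). The helicase gene Ddx46 was higher (75.8 and 243, 1.68). Among 32 chromatin regulators 3 were lower (9.38%, against 5.41% of all genes): Hmgn2 (255 and 102, -1.32), Hmgb2 and the histone chaperone gene Supt16 (-1.13). The 2 higher ones were histone demethylase genes, enzymes that use oxygen, Kdm5b (1.55, at a level of 106 in hypoxia) and the set-aside Kdm3a (39.0 and 144, 1.89). Another oxygen-using enzyme, the RNA demethylase gene Alkbh5, was also higher at 61.2 and 153 (1.32).

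Hif1a, the gene for the oxygen-regulated subunit itself, was lower, at 277 in normoxia and 82.7 in hypoxia (-1.75), above the floor on both arrays. Its protein is controlled mainly by destruction, which an RNA array does not read. The hydroxylase genes Egln3 (7.05) and Egln1 (21.5 and 132, 2.62), which mark that protein, were higher and are set aside. Among 17 immediate-early and stress transcription factors Hif1a was the lower one (5.88%, against 5.41% of all genes) and 3 were higher (17.6%, against 5.86%). The higher ones were Nfil3, a leucine zipper repressor (19.9 and 81.4, 2.03), Jun (37.1 and 89.7, 1.27) and the set-aside Bhlhe40 (1.46). Of 18 myeloid transcription factors 1 was lower, Trps1 (121 and 49.8, -1.28). In kinase signalling 3 of 46 were higher (6.52%, against 5.86% of all genes) and 3 lower (6.52%, against 5.41%), both near the background. Stk24 (81.7 and 268, 1.71) and Map2k1, which encodes MEK1 (1.17), were higher. The third was the set-aside Pdk1, a metabolic kinase gene of the glycolysis list that is counted here too. Leaving out set-aside genes, 2 of 45 were higher. The cytokine receptor kinase gene Jak2 (169.6 and 66.7, -1.35), the protein kinase C gene Prkcb (227 and 96.1, -1.24) and Fgr were lower. Signalling genes on no list that were higher include the arrestin-related Arrdc3 (76.8 and 338, 2.14) and the endosomal adaptor gene Appl2 (48.6 and 209, 2.11).

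In the secretory route the differences lay in protein folding in the endoplasmic reticulum. Of 27 genes of folding and the unfolded protein response 5 were lower (18.5%, against 5.41% of all genes), 2 of them at the floor on both arrays. The set-aside oxidase gene Ero1a (47.8 and 863, 4.17) was the 1 higher gene, and the list's median was -0.37. The lower ones were Hspa5, the main chaperone BiP (402 and 168, -1.26), the disulfide isomerase gene Pdia6 (296 and 119, -1.32), Hyou1 (-1.39), Sdf2l1 (-1.22) and Rpn1, a subunit of the complex that attaches sugars (-1.16). Against these, P4hb, the isomerase that is also a subunit of collagen hydroxylase, read 295 and 485 (0.72). None of 36 genes of secretory transport and none of 50 of membrane traffic and small GTPases was 2-fold apart, with medians of -0.19 and -0.11. The autophagy list had 2 of 13 higher (15.4%, against 5.86% of all genes), the set-aside mitophagy receptor genes Bnip3 (34.3 and 335) and Bnip3l (250.1 and 526). Both also count, with the set-aside Ccng2 (1.34), in the apoptosis and survival list. There these 3 of 18 were higher (16.7%, against 5.86% of all genes) and Cycs was lower (5.56%, against 5.41%). The lysosome was level. Of 54 genes only Ctsk, a collagen-cleaving cathepsin, was higher (54.9 and 211, 1.94), none was lower, and the median was 0.08. The brighter members Psap (3749 and 4181) and Ctss (2414 and 2747) differed little.

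Several large lists had no gene 2-fold apart in either direction. Of 73 cytosolic ribosomal protein genes, 52 lay above 0 with a median of 0.12, between Rps6 (-0.52) and Rps27 (0.74). The 47 genes of the proteasome and ubiquitin had a median of -0.26, against -0.08 for all genes, with 34 below 0. The 34 genes of translation factors and tRNA synthetases had a median of -0.15, the 17 cytosolic heat shock proteins and chaperonins one of -0.35, the 15 genes of RNA decay one of -0.08, the 9 of eicosanoid synthesis one of -0.28, and the 11 reference genes one of -0.08. The RNA decay and eicosanoid medians crossed 0 at other settings. Ribosome biogenesis had 2 genes at the floor, Npm1 (392.3 and 352) and Pes1 (49.8 and 71.5).

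**Figure D3:**
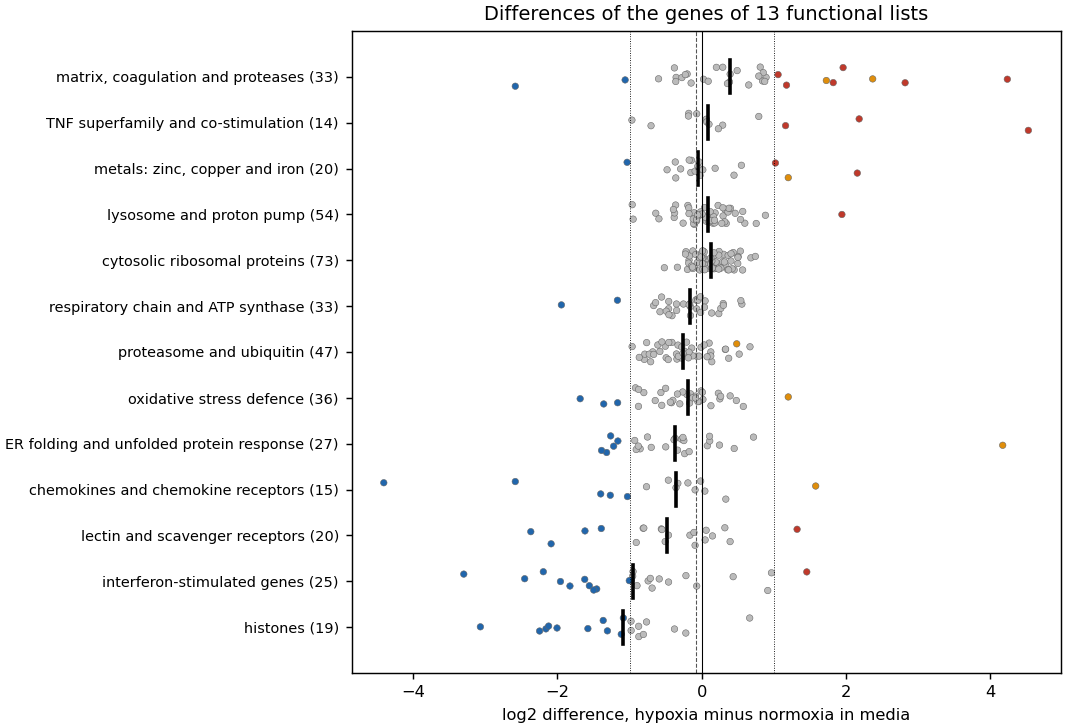
Log2 difference (hypoxia minus normoxia in media) of each gene at the floor in 13 functional lists, 1 point a gene, with the number of genes in brackets. Blue points are 2-fold lower, red points 2-fold higher, orange points set-aside genes and grey points within 2-fold. The thick bar is the list's median, the dashed line the median of all 2254 genes (-0.08) and the dotted lines 2-fold. The matrix list reaches furthest to the right in number of genes, and the histone and interferon-stimulated lists have the lowest medians.

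Genes of inflammation were lower in several lists. Of 15 chemokine and receptor genes 5 were lower (33.3%, against 5.41% of all genes), of which 1 was at the floor on both arrays, and 1, the set-aside receptor gene Cxcr4 (131 and 391), was higher, with a median of -0.36. Next to Ccl2 (-4.41, or -2.21 after adding 16) and Ppbp, the lower ones were Ccl3 (430.3 and 163, -1.40), Ccl5 (136 and 56.6, -1.27) and Cxcl3 (-1.03). Of 27 cytokine and receptor genes 2 were higher (7.41%, against 5.86% of all genes) and 2 lower (7.41%, against 5.41%). The higher ones were the set-aside Vegfa (27.3 and 214, 2.97) and Mif (70.4 and 535, 2.93), and the lower ones the receptor genes Met (-1.08) and Il21r (-1.07). Mif, which encodes macrophage migration inhibitory factor, was higher on all 3 of its probe sets. The array holds 105 listed interferon-stimulated genes, of which 25 had enough signal in media. Of these 10 were lower (40%, against 5.41% of all genes), 3 of them at the floor on both arrays, and 1 was higher, with a median of -0.95. The Ly6 family members Ly6i (211 and 38.5, -2.45), Ly6a (88.9 and 19.4, -2.20) and Ly6e (674 and 246, -1.46) were among them, with Ifi203 (-1.96), the oligoadenylate synthetase-like Oasl2 (-1.83), Rnf213 (-1.62), the RNA sensor gene Ddx58 (-1.56), Slfn5 (-1.50), Trim30a (-1.004) and Apol7c. The membrane protein gene Ifitm1 was the higher one (39.0 and 107, 1.46). Of 21 nucleic acid sensors and Toll-like receptors 2 were lower (9.52%, against 5.41% of all genes) and 1 higher (4.76%, against 5.86%). Ikbke, a kinase that activates interferon regulatory factors (134 and 42.8, -1.64), and Ddx58 were lower, and the adaptor gene Ticam2 was higher (41.1 and 134, 1.70). Of 20 MHC genes, H2-M2 (176 and 53.1, -1.73) and the proteasome activator gene Psme2 (-1.07) were lower (10.0%, against 5.41% of all genes) and none was higher. On no list, Aoah, which inactivates bacterial lipopolysaccharide, was lower at 131 and 26.05 (-2.33).

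The arrays with poly I:C gave the same contrast of oxygen in stimulated cells, from 2 arrays that the media comparison did not use. Over the same 2254 genes 78 were higher in hypoxia there (3.46%) and 79 were lower (3.5%). Of the 132 genes higher in media 65 were also higher with poly I:C, which is 49.2% of the media genes and 83.3% of the 78. In all 125 lay above 0 there, and none was 2-fold lower. Of the 122 genes lower in media 27 were also lower with poly I:C, which is 22.1% of the media genes and 34.2% of the 79. In all 99 lay below 0, and none was 2-fold higher. The median of all 2254 genes in the poly I:C pair was -0.08, so genes there lay below 0 more often than above it. The median of the higher genes was 1.49 in media and 0.99 with poly I:C, and that of the lower genes -1.32 and -0.45. For the 91 higher genes on neither set-aside list 35 were also higher with poly I:C (38.5%), with medians of 1.39 and 0.78, and for the 41 set-aside genes 30 were (73.2%), with medians of 2.04 and 1.39. Because the genes were chosen by their media difference, a smaller difference in the other pair is partly set by that choice.

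**Figure D4:**
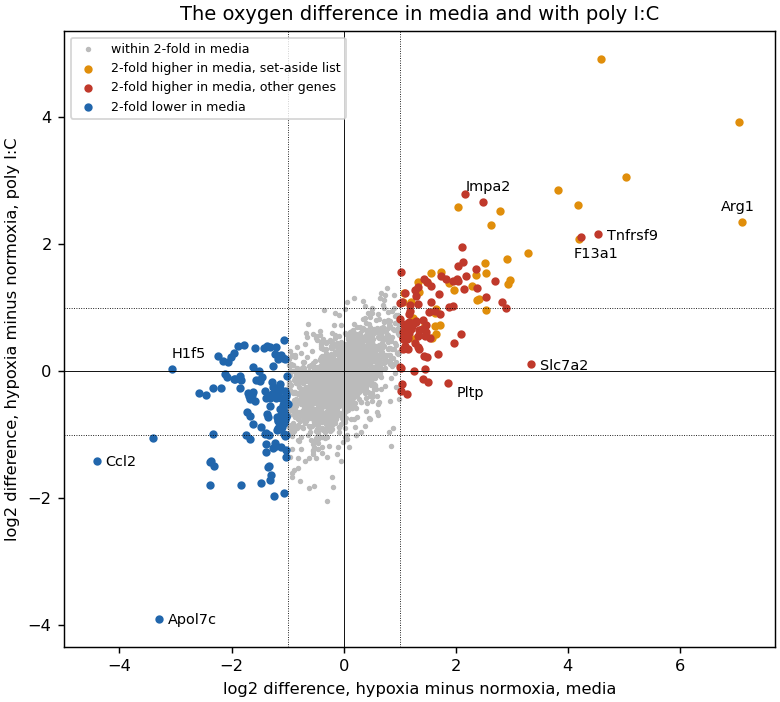
Log2 difference between hypoxia and normoxia in media (x axis) and with poly I:C (y axis) for the 2254 genes, 1 point a gene and 1 array a condition. Dotted lines mark 2-fold. No coloured point lies past 2-fold in opposite directions, and Slc7a2 and Pltp lie far to the right but near 0 on the y axis.

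Some genes beyond the set-aside lists were past 2-fold the same way in both pairs, at similar or different size. Impa2 read 24.2 in normoxia and 153 in hypoxia with poly I:C (2.66, against 2.49 in media), Mt2 52.5 and 365 (2.80 against 2.16), and Appl2 26.6 and 103 (1.95 against 2.11). Tnfrsf9 reached nearly the same hypoxic level in both settings, 436 in media and 437 with poly I:C, from a normoxic level of 18.8 and 98.0. Its difference with poly I:C was thus smaller (2.16 against 4.53). Alas1 was again lower (832 and 416, -1.001 against -1.03 in media). So were Prkcb (-1.96 against -1.24), Gclm (-1.50 against -1.36), Acsl1 (-1.71 against -1.31), Marcks (-1.75 against -1.48), Ptafr (-1.19 against -1.11) and Clec5a (-1.41 against -2.37). Of these, Prkcb (56.3 and 14.5) and Gclm (37.2 and 13.1) were under the floor on both poly I:C arrays, so their differences there rest on low signal. Others did not repeat. Slc7a2 read 540.0 and 583 with poly I:C (0.11), Pltp 137 and 121 (-0.18), Ddx46 48.3 and 58.6 (0.28), and Cfb 1511 and 1676 (0.15). Slc7a2 and Cfb were bright on both poly I:C arrays, whereas Ddx46 was under the floor on both. The matrix genes F13a1 (4.46 and 19.4) and Mamdc2 (3.06 and 6.53) were dim on both poly I:C arrays, so their differences there rest on low signal.

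The groups of lower genes took different levels over the 4 arrays. The 10 lower histone genes had a median intensity of 151 in normoxia in media, 41.3 in hypoxia in media, 41.4 in normoxia with poly I:C and 48.6 in hypoxia with poly I:C. Their high array was thus the normoxia media array, and the other 3 were alike. The 2 lower replication genes read 76.7, 10.6, 11.95 and 4.96 in the same order. The 5 lower genes of protein folding read 119, 53.2, 61.5 and 54.3. The 10 lower interferon-stimulated genes read 95.6 and 33.2 in media but 508 and 444 with poly I:C, but they did not move alike. With poly I:C Apol7c read 201 and 13.5 (-3.89, against -3.30 in media) and Rnf213 578 and 327 (-0.82), while the other 8 differed by no more than Ly6i (-0.37) in size. The 5 lower chemokine genes read 110.4 and 32.2 in media and 127 and 47.7 with poly I:C. All of these genes were chosen as high on the normoxia media array relative to the hypoxia media array, and every difference from that array shares it, so a high value on 1 array cannot be told apart from a response.

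**Figure D5:**
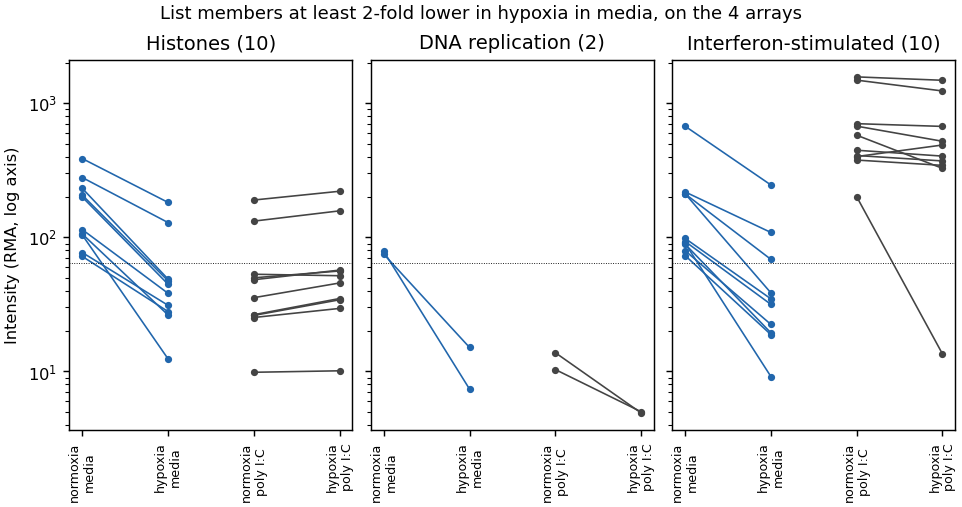
RMA intensity (log axis) on the 4 arrays of the histone (10), DNA replication (2) and interferon-stimulated (10) genes that were 2-fold lower in hypoxia in media, 1 line a gene, blue in media and grey with poly I:C. The dotted line is the floor of 64. Histone and replication genes are highest on the normoxia media array, and the interferon-stimulated genes are highest with poly I:C.

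Promoters were described for the letters ACGTG, the core of the motif that HIF binds, on either strand of the 250 bases before a gene's start (RefSeq promoters of mouse build GRCm38.p6). The motif stood in 16.6% of 27025 promoters and in 25.4% of those of the 1698 genes at the floor with a sequence. Among higher genes it stood in 18 of 36 set-aside promoters (50%) and in 9 of 56 of the other promoters (16.1%), among lower genes in 33 of 98 (33.7%), and among genes within 2-fold in 24.7%. The variant GCGTG stood in 28.2% of all promoters, 47.7% of those at the floor, and 52.8%, 39.3% and 42.9% of the set-aside higher, other higher and lower ones. These promoters differ in base composition, with a median GC content of 52.0% over all and 57.0% to 61.4% in the groups, and the motif holds a CG step. Of the 35 genes beyond the set-aside lists that were higher in both oxygen comparisons 24 had a promoter sequence. Of these 7 held ACGTG, to be read beside the 25.4% of promoters at the floor. The 3 of the 7 furthest apart in media are printed with the set-aside Egln3 for reference. They were picked because they hold the core, so its presence in them is not a finding. All run 5′ to 3′ on the gene's strand up to the base before its start, and capitals mark ACGTG or its reverse complement CACGT. Egln3 lies at chr12:54203875-54204124 (minus strand), Cd244a at chr1:171558943-171559192, Mthfd1l at chr10:3972825-3973074 and Vdac1 at chr11:52360601-52360850 (plus strand).
Egln3: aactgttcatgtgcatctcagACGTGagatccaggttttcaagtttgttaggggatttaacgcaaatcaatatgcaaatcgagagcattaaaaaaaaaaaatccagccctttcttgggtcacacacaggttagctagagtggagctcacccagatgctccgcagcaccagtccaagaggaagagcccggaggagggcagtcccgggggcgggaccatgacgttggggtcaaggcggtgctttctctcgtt
Cd244a: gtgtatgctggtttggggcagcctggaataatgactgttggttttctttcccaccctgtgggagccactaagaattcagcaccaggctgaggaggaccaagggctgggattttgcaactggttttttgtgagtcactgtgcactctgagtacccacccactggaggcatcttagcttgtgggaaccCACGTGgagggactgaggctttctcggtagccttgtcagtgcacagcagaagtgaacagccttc
Mthfd1l: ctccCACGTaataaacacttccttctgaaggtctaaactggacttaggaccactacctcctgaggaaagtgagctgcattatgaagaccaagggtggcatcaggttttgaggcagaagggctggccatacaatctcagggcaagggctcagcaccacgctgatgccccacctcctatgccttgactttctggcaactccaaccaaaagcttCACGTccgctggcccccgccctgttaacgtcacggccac
Vdac1: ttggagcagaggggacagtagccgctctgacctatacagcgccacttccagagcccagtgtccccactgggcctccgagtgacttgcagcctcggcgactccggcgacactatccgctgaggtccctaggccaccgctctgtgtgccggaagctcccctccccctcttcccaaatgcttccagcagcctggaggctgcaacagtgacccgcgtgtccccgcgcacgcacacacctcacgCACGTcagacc
In Egln3, which read 3.81 and 506, the core begins 229 bases before the start. In Cd244a the reverse complement and the core overlap and begin 64 and 63 bases before the start, and Mthfd1l has 2 reverse complements, at 246 and 39 bases. Vdac1 has 1, at 11 bases. A match in letters is a description of the sequence and shows no binding.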

How the data were processed

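Gene expression was measured in 4 samples, each read on 1 Affymetrix Mouse Gene ST 1.0 array, and the 2 media arrays were compared. Per the submitters' processing notes, the authors normalized the arrays by RMA (robust multi-array averaging) in Affymetrix Expression Console, which corrects background, makes the array distributions alike and summarises probe sets. The deposited intensity values are linear, and 0 of them differed between the 2 deposited tables. The label protocol also mentions nascent RNA, but the samples are labelled total RNA. The sources used here give neither tool versions nor the annotation's build.

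Of 28998 probe sets, 18694 were named through RefSeq accessions, 2210 by a current symbol and 1750 by a synonym (RefSeq table of GRCm38.p6), and 2270 kept the file's symbol. The 163 with several genes and 3911 with none were left out. For a gene with several probe sets, as for 354 of the 2254, the brightest was used. The log2 of each value was taken and differences were called at 2-fold, with Python 3.11.15, numpy 2.4.6 and pandas 2.3.3. The 2-fold call was tried on simulated arrays with changes planted only in genes whose mean level was above the floor. It does not bear on calls of dim genes or on list counts. Alternative scalings used limma 3.58.1 in R 4.3.3 and the figures matplotlib 3.10.9. With 1 array a condition no p-value can be had, and precision is limited by the number of arrays.

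The genes and the 46 functional and 12 marker lists were chosen with earlier results of these data known. The counts of the cholesterol list are not reported here. Named genes were the 25 largest increases and 25 largest decreases off the set-aside lists, up to 6 members a list past 2-fold and up to 3 short of it, the genes near the floor and those under 16 on 1 array only. Others named were chosen after their values were seen. The brightest genes were not listed, since levels of different probe sets are not comparable.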

Additional observations from a re-analysis of the deposited data

How the results depend on the processing

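The counts of 132 higher and 122 lower genes in media depend on the floor and the threshold. A floor of 32 gave 193 higher and 221 lower genes, a floor 2 times the one used gave 88 and 52, a floor on both arrays 53 and 34, and no floor 324 and 494. A threshold of 3-fold gave 59 and 40, and 1.5-fold gave 264 and 350. Adding 16 to each intensity gave 111 and 81. Fewer genes or a different threshold enter by the construction of these settings. Averaging probe sets, centring on the median gene or on the reference genes, cyclic loess and quantile normalization gave 131 to 152 higher and 100 to 115 lower genes, which turns the balance further towards higher. Leaving out predicted genes named Gm or LOC, a setting chosen after seeing the data, gave 116 and 118. Adding 16 took 62 of the 254 called genes under 2-fold, and centring took 22. At 1.5-fold in the poly I:C pair, 101 of the 132 higher and 55 of the 122 lower genes went the same way, against 65 and 27 at 2-fold. Centring on the median gene (-0.08) adds the same small amount to every difference. Of the 400 named genes, those just below 0, such as Actb (-0.06) and B2m (-0.02), thus change sign under it. Of the 46 list medians 15 changed sign under some setting, among them nuclear transport (-0.41 to 0.04), MHC (-0.08 to 0.24), TNF superfamily (-0.04 to 0.45) and alternative activation (-0.11 to 0.40), and 31 did not, among them histones, interferon-stimulated genes and matrix. The median of all genes lay between -0.08 and 0.00. No paired analysis was possible because each condition has 1 array. Depth is limited by signal: with no detection calls, genes dim on 1 array have uncertain folds.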

Other observations

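Some genes past 2-fold between the 2 media arrays stand on none of the functional lists and were picked for description after their values were seen. Grina, a membrane protein gene of the family that holds Bax inhibitor 1-like proteins, read 128.2 in normoxia and 376 in hypoxia (1.55), and with poly I:C 554 and 1186 (1.10). Fxyd5, a regulator of the sodium pump, read 534 and 1142 (1.10), and Stom, a membrane scaffold gene, 179 and 383 (1.10). Both were well above the floor on both arrays. Mr1, which presents vitamin B metabolites to T cells, read 25.2 and 71.1 (1.496), and with poly I:C it was under the floor at 28.8 and 25.7 (-0.16). Tiparp, a target gene of the aryl hydrocarbon receptor, read 27.2 and 68.7 (1.33), and 52.6 and 110.2 with poly I:C (1.07). Abcd2, a peroxisomal transporter of fatty acids, read 49.4 and 123 (1.32) and was dim with poly I:C (13.8 and 20.2). The small RNA genes Snord15b (49.9 and 133) and Rnu2-10 (34.7 and 81.5) were also higher in media.

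Other genes on no list were lower, picked in the same way. Pot1b, which caps telomeres, read 121 and 38.0 (-1.67), the topoisomerase gene Top1 74.8 and 28.9 (-1.37), and the base excision repair gene Apex1 76.6 and 34.9 (-1.13). Dek, a chromatin protein, read 71.8 and 35.1 (-1.03). All 4 were under the floor on the hypoxia array. St3gal5, which makes the ganglioside GM3, read 101 and 38.6 (-1.39) and was lower with poly I:C too (-1.14), as was the phosphate importer gene Slc20a1 (-1.20 in media, -1.17 with poly I:C). Ms4a6c, a myeloid membrane gene, was lower in media at 109 and 37.9 (-1.52), while with poly I:C it was bright on both arrays at 756 and 689 (-0.14). With 1 array a condition none of these differences has an error.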
